A study of Mus musculus with 12 samples.

Results

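Autophagy and lysosome genes were examined in the small intestine of PPARα-null and wild-type mice that had been fasted for 24 h or had free access to feed. The set of 42 genes was listed by function and covered the adaptor Sqstm1, the Atg8 family, factors that build the autophagosome, mitophagy receptors, the regulator Tfeb, and proteins of the lysosomal membrane and lumen. This set and the related gene lists were chosen with earlier results of these data known. Their shares beside those of all genes are therefore descriptive only. A probe set, the group of oligonucleotides that reports one transcript on the Affymetrix MOE430A array, was assigned to a gene where the platform annotation gave it 1 gene symbol. By this rule 40 of the 42 genes had 82 probe sets, out of 12394 genes and 22690 probe sets on the array. Bnip3l and Cd63 had none: the Bnip3l probe sets carry a pair of symbols, and Cd63 is not named in the annotation used here.

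The 12 arrays comprised 4 groups of 3 biological replicates: fasted PPARα-null, fed PPARα-null, fasted wild-type and fed wild-type mice. PPARα-null mice were of substrain 129S4/SvJae and wild-type mice of 129S1/SvImJ by the design text (the strain fields of the fed samples give only 129Sv). All were males of 14 weeks, and RNA came from the full-length small intestine, so all its cell types contribute. The feed is named AIN93M in the design text and chow in the study's methods. Because the genotypes are different substrains, the absence of PPARα and the substrain cannot be told apart. The free-text descriptions of the fasted wild-type samples name the knockout, whereas their titles and strain fields name the wild type. Ppara itself was 13.2, 11.7 and 11.0 in fasted PPARα-null, 6.84, 7.50 and 7.35 in fed PPARα-null, 58.7, 48.1 and 30.8 in fasted wild-type and 19.9, 34.0 and 35.9 in fed wild-type mice (deposited GCRMA intensity, a linear scale without unit), so every wild-type array lay above every PPARα-null array.

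Autophagy encloses cytoplasm, aggregates or mitochondria in a membrane, the autophagosome, and delivers them to lysosomes, where acid hydrolases break them down and release amino acids, sugars and lipids for reuse. In most mammalian tissues lack of nutrients relieves the inhibition that mTORC1 exerts on this route, and TFEB, a factor that binds E-box sequences in the promoters of lysosomal genes, then enters the nucleus. PPARα, the nuclear receptor for fatty acids that takes part in the fasting response of liver and small intestine, is described in mouse liver as a further activator of autophagy genes.

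Promoter windows of the set were searched for the E-box that TFEB binds. Windows of 300 bases (250 before and 50 after the RefSeq transcript start, GRCm38.p6) were given for 34 of the 42 genes, and both strands were searched. The E-box core CACGTG occurred in 11 of these 34 genes (32.4%), as against 8.09% of all genes with a window. It was present in Atg5, Atg7, Bnip3, Lamp1, Mcoln1, Ctsa, Ctsd, Ctsl, Gaa, Gla and Glb1. Among related lists the core occurred in 10 of 34 other lysosomal genes (29.4%), 4 of 15 V-ATPase genes and 5 of 27 nutrient-sensing genes, but in 2 of 34 other autophagy genes (5.88%). The complete CLEAR palindrome (the core with GT before and AC after it), the FoxO sequence GTAAACA and the PPAR direct repeat (AGGTCA, any 1 base, AGGTCA) were found in none of the 34 genes, and in 0.370%, 4.05% and 0.0481% of all genes. A match describes letters only and not a bound site. The windows of Bnip3 and Atg5 are shown because, of the 9 expressed genes with the core, these were the ones called changed upon fasting, and that of Lamp1 because it held 4 matches, the most of any gene in the set. Capitals mark CACGTG, and the windows run 5′ to 3′ on the strand of the gene: Bnip3 chr7:138909457-138909756, minus strand; Atg5 chr10:44268089-44268388, plus strand; Lamp1 chr8:13158911-13159210, plus strand.
Bnip3: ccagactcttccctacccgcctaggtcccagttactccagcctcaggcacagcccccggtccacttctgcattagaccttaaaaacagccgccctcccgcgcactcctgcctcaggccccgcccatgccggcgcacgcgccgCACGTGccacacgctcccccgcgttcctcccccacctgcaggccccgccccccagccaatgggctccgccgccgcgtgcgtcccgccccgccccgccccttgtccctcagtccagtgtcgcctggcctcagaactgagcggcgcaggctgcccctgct
Atg5: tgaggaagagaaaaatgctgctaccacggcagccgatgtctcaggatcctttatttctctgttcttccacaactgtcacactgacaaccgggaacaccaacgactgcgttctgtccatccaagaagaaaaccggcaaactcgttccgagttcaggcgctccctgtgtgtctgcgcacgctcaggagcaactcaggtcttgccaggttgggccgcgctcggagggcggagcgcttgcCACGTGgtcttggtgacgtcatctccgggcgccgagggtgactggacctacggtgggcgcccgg
Lamp1: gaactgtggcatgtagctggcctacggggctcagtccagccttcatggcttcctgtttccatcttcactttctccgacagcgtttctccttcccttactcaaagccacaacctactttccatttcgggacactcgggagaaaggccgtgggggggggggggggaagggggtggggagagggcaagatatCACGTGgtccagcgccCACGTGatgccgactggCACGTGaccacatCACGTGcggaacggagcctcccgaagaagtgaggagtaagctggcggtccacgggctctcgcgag

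Fed and fasted arrays differed in overall level and are written to different numbers of decimals. The upper quartile of an array was 60.8 to 65.0 in the 6 fasted and 76.1 to 80.4 in the 6 fed arrays, and the median fasting difference of expressed probe sets was -0.33 in PPARα-null and -0.28 in wild-type mice on the log2 scale. Fasting changes are therefore given relative to 1 common shift of -0.32, the median over expressed probe sets in both genotypes. The median difference varied with signal level. For mean intensities of 20 to 50, 50 to 200, 200 to 1000 and over 1000 it was -0.28, -0.37, -0.34 and -0.23 in PPARα-null mice. In wild-type mice it was -0.24, -0.29, -0.30 and -0.22. A single shift does not allow for this, which matters for changes near the threshold. A fasting effect on all genes alike and separate processing of the fed and fasted arrays cannot be told apart, whereas comparisons between genotypes in one nutritional state do not involve the shift. Intensities are printed as deposited, and a fasting change "as deposited" is one without removal of the shift. The exocrine pancreas markers also set arrays apart. Summed over 13 genes they were 26954, 634 and 28273 in the fasted PPARα-null, 720 to 1251 in the fed PPARα-null, 11225 to 23136 in the fasted wild-type and 632 to 2173 in the fed wild-type arrays. Macrophage markers, 14 genes of a cell type rich in lysosomes, summed to 1149 to 1193 in the fasted and 1841 to 1934 in the fed PPARα-null arrays, and to 1273 to 1391 in the fasted and 2023 to 2185 in the fed wild-type arrays. Most of this sum was Lyz2, with means of 754 in fasted PPARα-null, 1213 in fed PPARα-null, 894 in fasted wild-type and 1360 in fed wild-type mice. Of 11 expressed macrophage probe sets 1 fell in PPARα-null and 2 in wild-type mice, and none rose (limma). Of the defining macrophage genes Cd68, Cd14 and Itgam were near the floor, with at most 12.7 in any array. Lymphocyte markers (8 genes) summed to 249 to 304 in the fasted and 718 to 824 in the fed PPARα-null arrays, and to 529 to 552 in the fasted and 853 to 985 in the fed wild-type arrays. Ptprc gave the largest part, with means of 137 in fasted PPARα-null, 445 in fed PPARα-null, 317 in fasted wild-type and 529 in fed wild-type mice. Of 9 expressed lymphocyte probe sets 6 fell in PPARα-null and 2 in wild-type mice. Smooth muscle markers (6 genes) summed to 2998 to 3257 in the fasted and 4131 to 4576 in the fed PPARα-null arrays, and to 1983 to 3274 in the fasted and 4437 to 5304 in the fed wild-type arrays, and of 6 expressed probe sets 0 fell in PPARα-null and 4 in wild-type mice. Enterocyte markers (8 genes) were high throughout, with sums between 43039 and 53414. The ratio of 3′ to 5′ Gapdh signal, a sign of RNA quality, was 1.18 to 1.26 in fasted PPARα-null, 1.14 to 1.15 in fed PPARα-null, 1.22 to 1.25 in fasted wild-type and 1.10 to 1.18 in fed wild-type arrays. The part of these cell types and of RNA quality in the results was not tested. A further fit held the pancreas signal, which was higher in every fasted array, except PPARα-null replicate 2, than in every fed array. Fasting and pancreas signal thus largely go together in that fit and cannot be fully told apart. In whole intestine, fewer cells of a type and less RNA per cell cannot be told apart.

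Upon fasting, and relative to the common shift, more autophagy and lysosome genes rose than fell in both genotypes, whereas as deposited more fell than rose. In PPARα-null mice 9 of 35 expressed genes rose (25.7%, against 22.6% of all 5821 expressed genes), namely Map1lc3b, Gabarapl1, Becn1, Bnip3, Scarb2, Ctsb, Tpp1, Neu1 and Lipa, and 4 fell (11.4%, against 29.1%), namely Atg5, Atg12, Lamp2 and Hexa. In wild-type mice 7 rose (20%, against 12.9%), namely Gabarapl1, Bnip3, Lamp2, Scarb2, Ctsb, Tpp1 and Neu1, and 0 fell (against 9.95%). The largest changes in the set were those of Scarb2, Bnip3 and 1 probe set of Ctsb. For fasting, a probe set counted as expressed with a mean above 20 in fed wild-type mice, for a genotype comparison with a mean above 20 in either group compared, and for the difference of responses in any of the 4 groups. It counted as changed with p below 0.01 (limma, unadjusted) and a fold change above 1.3. A gene was counted where at least 1 of its expressed probe sets changed, even if its other sets did not. By probe set, 13 of 57 rose in PPARα-null mice (22.8%, against 18.6% of all 9370 expressed probe sets) and 5 fell (8.77%, against 23.6%). In wild-type mice 9 of 57 rose (15.8%, against 10.0%) and 0 fell (0%, against 7.43%). With a Benjamini-Hochberg adjusted p below 0.05 over all expressed probe sets in place of the unadjusted p (limma), 13 rose and 8 fell in PPARα-null mice (20.1% and 25.1% of all), and 9 rose and 0 fell in wild-type mice (10.3% and 7.67% of all). The median change of the 57 probe sets was 0.066 in PPARα-null mice, where that of all expressed probe sets was -0.016, and 0.026 in wild-type mice, where that of all was 0.031. As deposited, 6 rose and 21 fell in PPARα-null mice (8.16% and 43.4% of all) and 2 rose and 14 fell in wild-type mice (2.49% and 31.7% of all); quantile normalisation of all arrays gave 14 and 7 in PPARα-null (18.5% and 23.8% of all) and 7 and 2 in wild-type mice (7.85% and 10.1% of all), and centring each array on its median gave 17 and 5 in PPARα-null (21.9% and 20.8% of all) and 8 and 2 in wild-type mice (9.16% and 8.53% of all). With the pancreas signal as a covariate 9 rose (15.8%, against 16.5% of all) and 5 fell (8.77%, against 19.1%) in PPARα-null mice, and 4 rose (7.02%, against 7.32%) and 1 fell (1.75%, against 4.03%) in wild-type mice. In that fit the share of rises was near that of all probe sets in both genotypes. The pancreas signal largely went with fasting, so a call lost in this fit cannot be ascribed to either. Without fasted PPARα-null replicates 1 and 3, the arrays of that group with pancreas signal, 6 rose (10.5%, against 14.0% of all) and 4 fell (7.02%, against 17.8%) in PPARα-null mice, a fit that holds 1 array of that group and takes its spread from the other groups. The 6 rises left in PPARα-null mice as deposited were those of Bnip3, Ctsb, Tpp1, Neu1 and both sets of Scarb2.

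**Figure D1:**
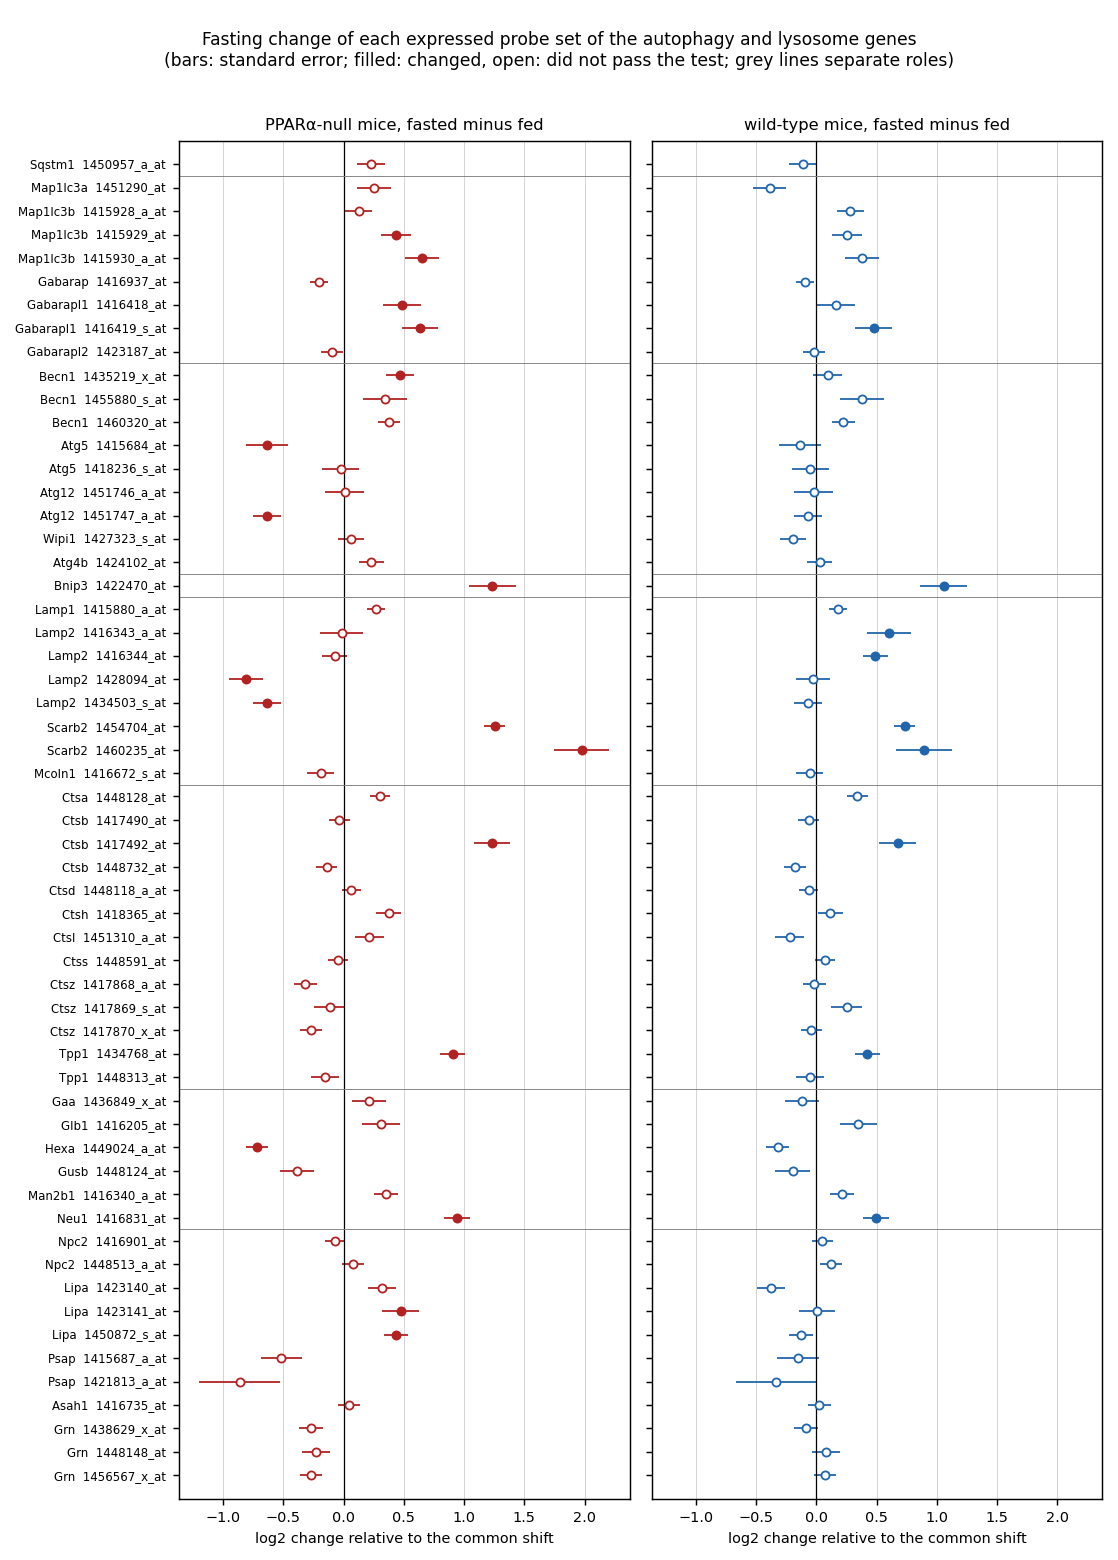
Fasting change (fasted minus fed, log2, relative to the common shift) of each of the 57 expressed probe sets in PPARα-null mice (left, red) and wild-type mice (right, blue), in order of role. Points are limma estimates with their standard errors, and filled points passed the test: 13 higher and 5 lower in PPARα-null mice, 9 higher and 0 lower in wild-type mice.

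Of the set, 5 genes were below the expression level in all groups and were not tested. They were Ulk1, the kinase that starts autophagosome formation, Atg7, the activating enzyme of the conjugation systems, Tfeb, Gla, which encodes α-galactosidase A, and Npc1, a lysosomal cholesterol exporter. Tfeb had 13.7, 11.5 and 12.1 in fasted PPARα-null, 10.3, 11.0 and 11.4 in fed PPARα-null, 10.1, 9.98 and 10.4 in fasted wild-type and 11.0, 11.1 and 10.2 in fed wild-type mice, below the expression level in every array.

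Sqstm1 encodes p62, which ties ubiquitin-marked cargo to the autophagosome and is itself degraded there. Its intensity was 759, 679 and 704 in fasted PPARα-null, 811, 838 and 640.0 in fed PPARα-null, 508, 501 and 578 in fasted wild-type and 643, 745 and 750.4 in fed wild-type mice. The fasted wild-type arrays were thus the lowest of all and did not overlap with the fasted PPARα-null arrays. Neither fasting change passed the test (0.23 ± 0.11 in PPARα-null and -0.11 ± 0.11 in wild-type mice, log2 ± SE), whereas the fasted PPARα-null mice were higher than fasted wild-type mice by 0.43 ± 0.11 (adjusted p = 0.00855, limma). This call ended without fasted PPARα-null replicate 1 (0.39), or fasted wild-type replicate 2 (0.40).

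The Atg8 family are small ubiquitin-like proteins that are coupled to lipid of the growing membrane and recruit cargo adaptors. Of its 5 genes, all expressed, Map1lc3b and Gabarapl1 rose in PPARα-null mice and Gabarapl1 in wild-type mice, and none fell. Gabarap had 1707, 1687 and 1595 in fasted PPARα-null, 2251, 2517 and 2379.9 in fed PPARα-null, 1685, 1661 and 1566 in fasted wild-type and 2168, 2181 and 2182 in fed wild-type mice. After removal of the shift it changed by -0.20 ± 0.075 in PPARα-null and -0.10 ± 0.075 in wild-type mice, and Gabarapl2 by -0.10 ± 0.094 in PPARα-null and -0.019 ± 0.094 in wild-type mice, none of which passed.

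Map1lc3b encodes LC3B, the member by which autophagosomes are usually marked. Its probe set 1415930_a_at read 829.5, 708 and 864 in fasted PPARα-null, 613, 576 and 711 in fed PPARα-null, 889, 589 and 803 in fasted wild-type and 752, 693 and 703 in fed wild-type mice. Its change was 0.65 ± 0.14 in PPARα-null mice (adjusted p = 0.00169) and 0.38 ± 0.14 in wild-type mice, where the groups overlapped and the test was not passed. Probe set 1415929_at read 798, 661 and 815 in fasted PPARα-null, 795, 596 and 709.6 in fed PPARα-null, 701, 559 and 676 in fasted wild-type and 657, 673 and 679 in fed wild-type mice, and rose by 0.43 ± 0.12 in PPARα-null mice (adjusted p = 0.00959). As deposited both sets overlapped between fasted and fed PPARα-null mice, with changes of 0.34 and 0.12 that did not pass, so these rises are relative to the other genes of the array. They were also lost with the pancreas signal in the fit. The call of 1415929_at also ended without fasted PPARα-null replicate 1 (0.39) or 3 (0.38), or fed PPARα-null replicate 2 (0.32). The remaining expressed set, 1415928_a_at, changed by 0.13 ± 0.11 in PPARα-null and 0.28 ± 0.11 in wild-type mice and passed in neither.

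Gabarapl1, a relative of Gabarap that also binds the autophagosome membrane, had 139, 106 and 128 in fasted PPARα-null, 104, 100.5 and 93.1 in fed PPARα-null, 96.9, 96.6 and 137 in fasted wild-type and 90.5, 88.2 and 115 in fed wild-type mice (1416419_s_at). It rose by 0.64 ± 0.15 in PPARα-null (adjusted p = 0.00324) and by 0.48 ± 0.15 in wild-type mice (adjusted p = 0.0381). The wild-type call ended without fasted PPARα-null replicate 3, fed PPARα-null replicate 1 or 2, fasted wild-type replicate 3, or fed wild-type replicate 1 or 2 (0.30 to 0.48). As deposited the changes were 0.32 and 0.16, and neither passed, nor did they with the pancreas signal in the fit. The wild-type call was also lost under quantile normalisation, under median centring, with arrays weighted and with only the compared groups fitted. It held in 4 of 11 settings other than leaving out an array. The second set, 1416418_at, read 145, 139.6 and 130.4 in fasted PPARα-null, 148, 139 and 90.4 in fed PPARα-null, 137, 135 and 137 in fasted wild-type and 173, 130.3 and 153 in fed wild-type mice, so that 1 fed PPARα-null array was far below the rest. Its rise of 0.48 ± 0.16 in PPARα-null mice (adjusted p = 0.0205) was 0.17 as deposited, and the call ended without fasted PPARα-null replicate 1, 2 or 3, fed PPARα-null replicate 3, fasted wild-type replicate 1, 2 or 3, or fed wild-type replicate 3 (0.26 to 0.53).

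Map1lc3a, which encodes LC3A, was near the expression limit, with 26.6, 25.7 and 30.4 in fasted PPARα-null, 27.8, 29.6 and 28.8 in fed PPARα-null, 19.6, 22.9 and 18.4 in fasted wild-type and 25.9, 39.0 and 35.4 in fed wild-type mice. The 3 fasted wild-type arrays were the lowest. Its fasting change was 0.25 ± 0.14 in PPARα-null and -0.39 ± 0.14 in wild-type mice, neither past the test, but in the fasted state PPARα-null mice were higher by 0.44 ± 0.14 (adjusted p = 0.0219). This call ended without fasted PPARα-null replicate 1 or 3, fed PPARα-null replicate 2, or fasted wild-type replicate 1 or 3 (0.37 to 0.47).

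Of 5 expressed genes (Becn1, Atg5, Atg12, Wipi1 and Atg4b), Becn1 rose and Atg5 and Atg12 fell in PPARα-null mice, and none changed in wild-type mice. Atg5 and Atg12 encode proteins that are joined to each other and together promote lipid coupling of the Atg8 family. Atg5 (1415684_at) had 51.2, 81.7 and 58.5 in fasted PPARα-null, 113, 120.3 and 131 in fed PPARα-null, 98.4, 88.4 and 62.1 in fasted wild-type and 115, 108 and 111 in fed wild-type mice, and Atg12 (1451747_a_at) had 25.9, 35.0 and 28.1 in fasted PPARα-null, 56.7, 56.5 and 57.4 in fed PPARα-null, 40.3, 32.4 and 42.1 in fasted wild-type and 50.5, 49.5 and 49.0 in fed wild-type mice. As deposited, the fasted arrays of both genotypes lay below all fed arrays for both genes. In wild-type mice Atg12 passed as deposited (-0.38) and Atg5 did not (-0.45). Atg5 fell by 0.64 ± 0.18 (log2, adjusted p = 0.00827) and Atg12 by 0.63 ± 0.12 (adjusted p = 6.24e-04) in PPARα-null mice, against -0.13 ± 0.18 and -0.069 ± 0.12 in wild-type mice. The Atg5 call ended without fasted PPARα-null replicate 1 (-0.50) or 3 (-0.59), or fed PPARα-null replicate 3 (-0.58), and also with the pancreas signal in the fit. The other expressed probe set of each gene did not pass: 1418236_s_at of Atg5 changed by -0.023 ± 0.15 and 1451746_a_at of Atg12 by 0.0094 ± 0.16 in PPARα-null mice.

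Becn1, a subunit of the lipid kinase complex that marks the nucleation site, rose in PPARα-null mice with 1 of 3 expressed probe sets. That set, 1435219_x_at, had 87.3, 65.1 and 70.7 in fasted PPARα-null, 73.9, 62.3 and 63.4 in fed PPARα-null, 51.8, 57.5 and 64.6 in fasted wild-type and 66.2, 66.9 and 68.7 in fed wild-type mice, a change of 0.47 ± 0.12 in PPARα-null (adjusted p = 0.00475) and 0.10 ± 0.12 in wild-type mice. As deposited the PPARα-null change was 0.15 and did not pass, and the call ended with the pancreas signal in the fit and without fasted PPARα-null replicate 1 (0.34). Of the other sets, 1455880_s_at read 305, 271 and 288 in fasted PPARα-null, 328, 302 and 225 in fed PPARα-null, 369, 309 and 319 in fasted wild-type and 364, 228 and 381 in fed wild-type mice and did not pass in any comparison. For Wipi1, which binds the lipid made by that kinase, probe set 1456624_at read 26.6, 24.6 and 23.4 in fasted PPARα-null and 14.9, 18.4 and 21.7 in fasted wild-type mice, a difference of 0.45 ± 0.14 (adjusted p = 0.0214). This set passed the expression level only through the fasted PPARα-null group, so that it had to be higher there, and the call ended without fasted PPARα-null replicate 1, 2 or 3, or fasted wild-type replicate 1 or 2 (0.31 to 0.50). Atg4b, the protease that trims Atg8 proteins, passed in no comparison.

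Bnip3, a protein of the outer mitochondrial membrane that recruits LC3 and is induced by hypoxia, rose in both genotypes and was lower in PPARα-null mice in both states. It had 38.3, 34.7 and 43.8 in fasted PPARα-null, 22.0, 19.3 and 20.3 in fed PPARα-null, 51.5, 51.3 and 81.1 in fasted wild-type and 31.6, 30.3 and 47.9 in fed wild-type mice. Fasted arrays lay above all fed arrays of the same genotype. The rise was 1.24 ± 0.19 in PPARα-null (adjusted p = 1.66e-04) and 1.06 ± 0.19 in wild-type mice (adjusted p = 0.00254), and it also passed as deposited (0.92 and 0.74). PPARα-null mice were lower than wild-type mice, with a difference of -0.80 ± 0.19 in the fed state (adjusted p = 0.106, so the call rests on the unadjusted p) and -0.63 ± 0.19 in the fasted state (adjusted p = 0.0209). The size of the rise differed between genotypes by 0.18 ± 0.27, which did not pass (adjusted p = 0.685). The fasted call ended without fasted PPARα-null replicate 1 (-0.62) or 2 (-0.55), or fasted wild-type replicate 3 (-0.41), under quantile normalisation and with the pancreas signal in the fit.

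Among proteins of the lysosomal membrane, Scarb2 rose in both genotypes while Lamp2 gave opposite results by probe set and genotype. Scarb2 encodes LIMP-2, which carries glucocerebrosidase to the lysosome. Its probe set 1454704_at had 413, 413 and 385 in fasted PPARα-null, 208, 223 and 201 in fed PPARα-null, 384, 346 and 419 in fasted wild-type and 284, 277 and 297 in fed wild-type mice. Here every fasted array exceeded every fed array, and the fed PPARα-null arrays were the lowest. The rise was 1.25 ± 0.088 in PPARα-null mice (fold change 2.38, adjusted p = 2.59e-07) and 0.73 ± 0.088 in wild-type mice (fold change 1.66, adjusted p = 2.22e-04), and as deposited 0.94 and 0.42. The fed PPARα-null mice were lower than fed wild-type mice (difference -0.44 ± 0.088, adjusted p = 0.0431), the fasted mice differed by 0.079 ± 0.088, and the rise was larger in PPARα-null mice by 0.52 ± 0.12 (adjusted p = 0.00954). These calls were kept under every setting and without each array in turn. The second set, 1460235_at, read 128, 164 and 175 in fasted PPARα-null, 36.8, 56.1 and 56.6 in fed PPARα-null, 144, 98.9 and 107 in fasted wild-type and 54.1, 89.6 and 94.1 in fed wild-type mice. It rose by 1.97 ± 0.23 in PPARα-null (adjusted p = 1.52e-05) and by 0.89 ± 0.23 in wild-type mice (adjusted p = 0.0151), the wild-type call ending as deposited (0.58) and without fasted wild-type replicate 1 (0.73).

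**Figure D2:**
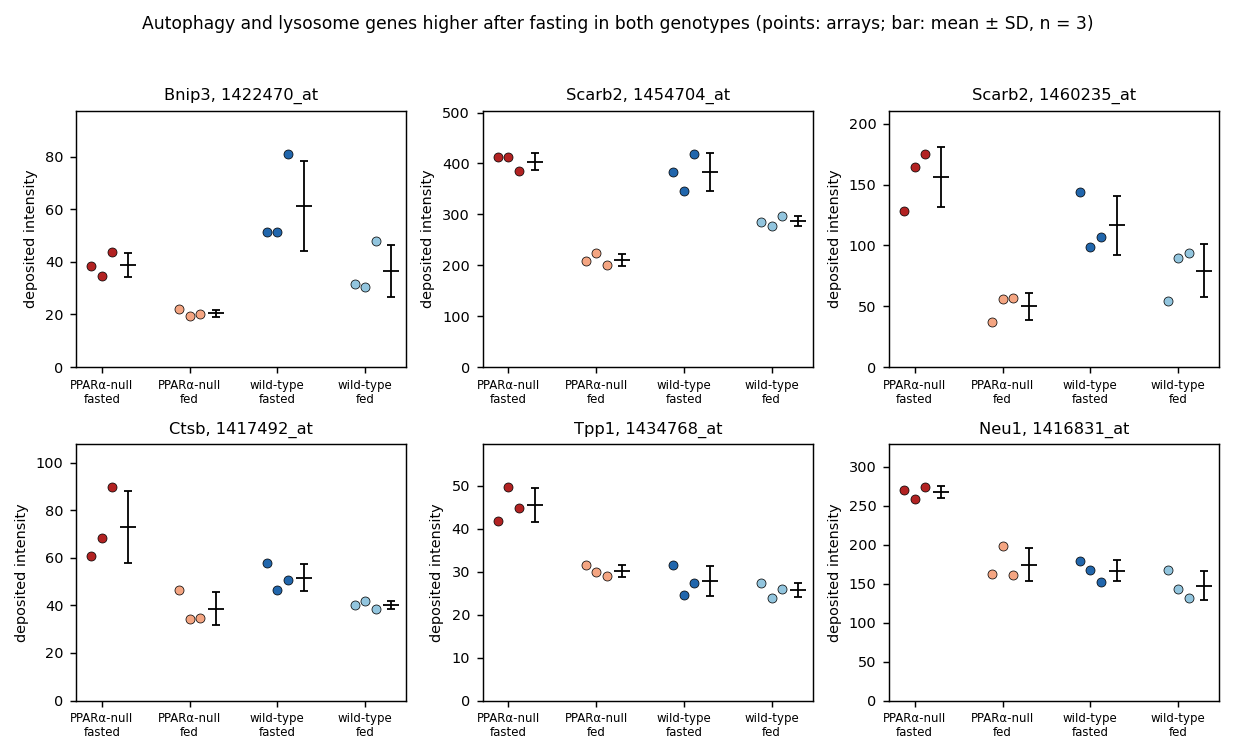
Deposited intensity (linear, no unit) of the 6 probe sets other than that of Gabarapl1 that rose upon fasting in both genotypes, by group; points are arrays, bars the mean ± SD of 3. Scarb2 and Bnip3 separate fasted from fed arrays in both genotypes, whereas for Neu1 and Tpp1 the wild-type groups overlap before the common shift is removed.

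Lamp2 encodes a major glycoprotein of the lysosomal membrane with splice forms that differ in their tail, one of which imports proteins in chaperone-mediated autophagy. Probe sets 1416343_a_at and 1416344_at rose in wild-type mice, whereas 1428094_at and 1434503_s_at fell in PPARα-null mice. Intensities of 1428094_at were 285, 287 and 298 in fasted PPARα-null, 515, 622 and 790.4 in fed PPARα-null, 491, 412 and 406 in fasted wild-type and 619.6, 502 and 539 in fed wild-type mice, and those of 1434503_s_at 298, 358 and 344 in fasted PPARα-null, 674, 619 and 639 in fed PPARα-null, 524, 449.7 and 408 in fasted wild-type and 688, 555 and 556 in fed wild-type mice. The fasted PPARα-null arrays were the lowest for both sets. The changes were -0.81 ± 0.14 (adjusted p = 3.49e-04) and -0.64 ± 0.12 (adjusted p = 5.33e-04) in PPARα-null mice, against -0.027 ± 0.14 and -0.066 ± 0.12 in wild-type mice. The falls in PPARα-null mice passed under every setting and without each array.

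For 1416344_at the intensities were 673, 731 and 725 in fasted PPARα-null, 899, 858 and 1039.8 in fed PPARα-null, 1071, 829 and 956 in fasted wild-type and 893, 819 and 806 in fed wild-type mice, and for 1416343_a_at they were 358, 444 and 319 in fasted PPARα-null, 424, 465 and 513 in fed PPARα-null, 595, 432 and 604 in fasted wild-type and 531, 336 and 476 in fed wild-type mice. These sets rose in wild-type mice by 0.49 ± 0.11 (adjusted p = 0.00631) and 0.61 ± 0.18 (adjusted p = 0.0294), with -0.074 ± 0.11 and -0.017 ± 0.18 in PPARα-null mice. As deposited the wild-type changes were 0.18 and 0.29, with overlap between groups, and did not pass; neither did they with the pancreas signal in the fit, and the call of 1416343_a_at ended without fasted wild-type replicate 1 (0.54) or 3 (0.52), or fed wild-type replicate 2 (0.41). In the fasted state PPARα-null mice were lower for 1416344_at (-0.42 ± 0.11, adjusted p = 0.0075), 1428094_at (-0.58 ± 0.14, adjusted p = 0.00522) and 1434503_s_at (-0.46 ± 0.12, adjusted p = 0.00707). Of these, 1416344_at ended without fasted wild-type replicate 1 (-0.33) and 1434503_s_at without fasted PPARα-null replicate 1 (-0.38), or fasted wild-type replicate 1 (-0.37). The annotation used here does not say which splice form a probe set reports.

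**Figure D3:**
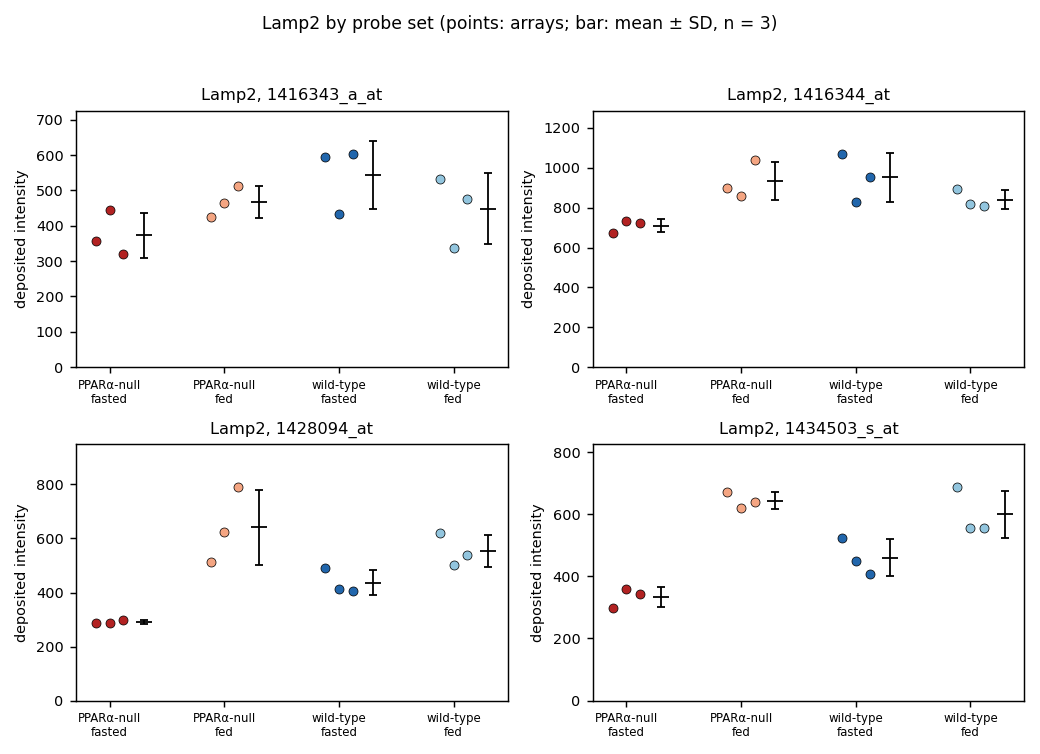
Deposited intensity (linear, no unit) of the 4 Lamp2 probe sets by group; points are arrays, bars the mean ± SD of 3. In fasted PPARα-null mice 1428094_at and 1434503_s_at lie between 285 and 358, below all other groups, while 1416343_a_at and 1416344_at have their highest group mean in fasted wild-type mice.

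Lamp1, the partner of Lamp2, had 2133, 1997 and 2169.7 in fasted PPARα-null, 2246, 2199.7 and 2068 in fed PPARα-null, 1785, 1910.5 and 1833 in fasted wild-type and 1985, 2051 and 2043 in fed wild-type mice. All arrays were within a narrow range. Its changes of 0.27 ± 0.074 in PPARα-null mice (adjusted p = 0.00835) and 0.18 ± 0.074 in wild-type mice did not pass, nor did those of Mcoln1, a calcium channel of the lysosome, with -0.19 ± 0.11 in PPARα-null and -0.056 ± 0.11 in wild-type mice.

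For most lysosomal peptidases no change passed the test. Of 8 expressed genes, Ctsb and Tpp1 each rose in both genotypes with 1 probe set of low signal, while their stronger sets did not pass. None fell, and the changes of Ctsa, Ctsd, Ctsh, Ctsl, Ctss and Ctsz did not pass upon fasting. Ctsz, cathepsin Z, had 1417, 1419 and 1294 in fasted PPARα-null, 1962, 2266 and 2180.3 in fed PPARα-null, 1624, 1339 and 1449 in fasted wild-type and 1912, 1727 and 1909 in fed wild-type mice, a change of -0.32 ± 0.095 in PPARα-null and -0.018 ± 0.095 in wild-type mice. Tpp1, tripeptidyl peptidase, had 41.8, 49.7 and 45.0 in fasted PPARα-null, 31.6, 30.0 and 28.9 in fed PPARα-null, 31.6, 24.6 and 27.4 in fasted wild-type and 27.3, 23.9 and 26.0 in fed wild-type mice for 1434768_at. The fasted PPARα-null arrays were above all others. It rose by 0.90 ± 0.10 in PPARα-null (adjusted p = 1.45e-05) and 0.42 ± 0.10 in wild-type mice (adjusted p = 0.0123), the wild-type call ending as deposited (0.11), under quantile normalisation and without fasted wild-type replicate 1 (0.33), or fed wild-type replicate 2 (0.37). In fasted mice PPARα-null exceeded wild-type by 0.71 ± 0.10 (adjusted p = 1.77e-04). The other Tpp1 set, 1448313_at, averaged 224 over all arrays, against 32.3 for 1434768_at. This stronger set changed by -0.16 ± 0.11 in PPARα-null and -0.05 ± 0.11 in wild-type mice, neither past the test.

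Ctsb, which encodes the cysteine protease cathepsin B, rose in 1 of 3 expressed sets. That set, 1417492_at, had 60.8, 68.2 and 89.7 in fasted PPARα-null, 46.6, 34.3 and 34.7 in fed PPARα-null, 57.9, 46.5 and 50.6 in fasted wild-type and 40.3, 41.7 and 38.4 in fed wild-type mice, without overlap between fasted and fed arrays of a genotype. The rises were 1.23 ± 0.15 (adjusted p = 2.31e-05) in PPARα-null and 0.67 ± 0.15 (adjusted p = 0.00745) in wild-type mice, the wild-type one not passing as deposited (0.36) or with the pancreas signal in the fit. The remaining sets, 1417490_at and 1448732_at, averaged 1418 and 1127 over all arrays, against 50.8 for 1417492_at. They changed by -0.034 ± 0.089 and -0.14 ± 0.088 in PPARα-null and by -0.063 ± 0.089 and -0.18 ± 0.088 in wild-type mice, none of which passed. In the fasted state 1417492_at was higher in PPARα-null mice by 0.48 ± 0.15 (adjusted p = 0.022), a call that ended without fasted PPARα-null replicate 2 or 3, fasted wild-type replicate 2 or 3, or fed wild-type replicate 1 (0.32 to 0.52). Ctsl, cathepsin L, had 402, 392 and 423 in fasted PPARα-null, 384, 434 and 494 in fed PPARα-null, 304, 249.5 and 340.0 in fasted wild-type and 449, 402 and 434 in fed wild-type mice. It was higher in fasted PPARα-null than in fasted wild-type mice by 0.46 ± 0.12 (adjusted p = 0.00884), ending without fasted wild-type replicate 2 (0.33).

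Glycosidases, which remove sugars from glycoproteins and glycolipids, moved both ways: of 6 expressed genes Neu1 rose in both genotypes and Hexa fell in PPARα-null mice. Neu1, the lysosomal sialidase, had 269.8, 259 and 274 in fasted PPARα-null, 163, 199 and 161 in fed PPARα-null, 179, 168 and 152 in fasted wild-type and 167, 144 and 131 in fed wild-type mice. The 3 fasted PPARα-null arrays stood above all 9 others. The rise was 0.94 ± 0.11 in PPARα-null (adjusted p = 1.76e-05) and 0.50 ± 0.11 in wild-type mice (adjusted p = 0.00765), which as deposited was 0.18 with overlapping groups and did not pass, nor did it with the pancreas signal in the fit. Fasted PPARα-null mice were higher than fasted wild-type mice by 0.69 ± 0.11 (adjusted p = 3.72e-04). Hexa, the α-subunit of β-hexosaminidase, had 290.4, 264 and 314 in fasted PPARα-null, 571, 635 and 572 in fed PPARα-null, 334, 308 and 339.9 in fasted wild-type and 553, 496 and 479 in fed wild-type mice. Fasted arrays lay below fed arrays in both genotypes. The change was -0.72 ± 0.093 in PPARα-null mice (adjusted p = 3.56e-05) and passed under every setting, and the change of -0.32 ± 0.093 in wild-type mice (adjusted p = 0.0261) did not reach a fold change of 1.3. The changes of Gaa, Glb1, Gusb and Man2b1, which act on glycogen, galactosides, glucuronides and mannosides, lay between -0.38 and 0.35 in PPARα-null and between -0.20 and 0.35 in wild-type mice and did not pass the unadjusted threshold. The fall of Gusb in PPARα-null mice passed by the adjusted p (limma).

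Among genes of lysosomal lipid handling only Lipa passed upon fasting. It encodes lysosomal acid lipase, which frees fatty acids and cholesterol from lipids that reach the lysosome. Its probe set 1450872_s_at had 385, 399 and 423 in fasted PPARα-null, 379.8, 361 and 369.7 in fed PPARα-null, 265, 277 and 219.5 in fasted wild-type and 323, 337 and 373 in fed wild-type mice. The fasted wild-type arrays were the lowest, and the fasted PPARα-null arrays the highest. It rose by 0.43 ± 0.10 in PPARα-null mice (adjusted p = 0.00225), which as deposited was 0.12 and did not pass, and changed by -0.13 ± 0.10 in wild-type mice. Probe set 1423140_at read 280.2, 315 and 299 in fasted PPARα-null, 325, 275 and 291 in fed PPARα-null, 219, 199.7 and 169 in fasted wild-type and 273, 342 and 331 in fed wild-type mice, with changes of 0.32 ± 0.12 in PPARα-null and -0.37 ± 0.12 in wild-type mice that did not pass. Probe set 1423141_at read 58.4, 69.3 and 56.2 in fasted PPARα-null, 46.3, 64.6 and 54.6 in fed PPARα-null, 50.4, 41.5 and 35.6 in fasted wild-type and 46.1, 53.2 and 57.8 in fed wild-type mice, and rose by 0.47 ± 0.15 in PPARα-null mice (adjusted p = 0.0173), 0.16 as deposited, a call that ended without fasted PPARα-null replicate 1 or 2, fed PPARα-null replicate 1 or 3, fasted wild-type replicate 2, or fed wild-type replicate 2 (0.35 to 0.50). In the fasted state all 3 Lipa sets were higher in PPARα-null than in wild-type mice: 1450872_s_at by 0.67 ± 0.10 (adjusted p = 1.66e-04), 1423140_at by 0.61 ± 0.12 (adjusted p = 0.00118) and 1423141_at by 0.54 ± 0.15 (adjusted p = 0.0128). The calls of 1450872_s_at and 1423140_at held without each array, and that of 1423141_at ended without fasted PPARα-null replicate 2 (0.44), or fasted wild-type replicate 2 (0.53) or 3 (0.42).

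Psap, the precursor of the saposins that assist glycolipid breakdown, had 852, 929 and 927 in fasted PPARα-null, 1457, 1594 and 1777 in fed PPARα-null, 963, 1388 and 806 in fasted wild-type and 1186, 1491 and 1613 in fed wild-type mice for 1415687_a_at, and 264, 236 and 316 in fasted PPARα-null, 529, 537 and 805 in fed PPARα-null, 282, 537 and 248 in fasted wild-type and 299, 685 and 709.5 in fed wild-type mice for 1421813_a_at. The fasted PPARα-null arrays of both sets lay below all fed arrays of the same genotype. The changes were -0.52 ± 0.17 and -0.86 ± 0.33 in PPARα-null mice and -0.15 ± 0.17 and -0.34 ± 0.33 in wild-type mice. Those in PPARα-null mice missed the unadjusted threshold and passed by the adjusted p (0.0217 and 0.0428, limma). Grn encodes progranulin, a secreted and lysosomal protein that is cut into granulins. For its set 1448148_at the intensities were 311, 261 and 235 in fasted PPARα-null, 428, 388 and 354 in fed PPARα-null, 344, 364 and 358 in fasted wild-type and 370.3, 455 and 433 in fed wild-type mice, and fasted PPARα-null mice were below fasted wild-type mice (difference -0.41 ± 0.12, adjusted p = 0.0133). The other Grn sets differed by -0.12 ± 0.10 and -0.29 ± 0.092 and did not pass, and the call of 1448148_at ended without fasted PPARα-null replicate 2 (-0.39) or 3 (-0.32), or fasted wild-type replicate 2 (-0.39) or 3 (-0.40) and on median centring. Upon fasting the probe sets of Npc2, which binds cholesterol in the lumen, changed by -0.069 and 0.075 in PPARα-null and by 0.05 and 0.12 in wild-type mice, and that of Asah1, acid ceramidase, by 0.048 in PPARα-null and 0.026 in wild-type mice, none past the test.

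Between genotypes, 2 probe sets of the set differed in fed mice and 15 in fasted mice. In the fed state 0 of 57 probe sets were higher and 2 lower (3.51%) in PPARα-null mice, against 2.66% of 9560 probe sets that differed in either direction and 1.65% that were lower, and the 2 were those of Bnip3 and Scarb2 given above. By the adjusted p, 0 were higher and 1 lower (0.105% and 0.523% of all). In the fasted state 10 of 58 were higher (17.2%, against 14.0% of 9217) and 5 lower (8.62%, against 16.8%) in PPARα-null mice, and by the adjusted p 10 were higher and 6 lower (15.1% and 17.8% of all). By gene, Sqstm1, Map1lc3a, Ctsb, Ctsl, Tpp1, Neu1 and Lipa were higher, and Bnip3, Lamp2 and Grn lower. The 10 include the Wipi1 set that was tested only through its level in fasted PPARα-null mice, and without it 9 of 57 were higher (15.8%). Of the 15 calls 5 were kept without each array in turn: Tpp1, Neu1, 2 of Lipa and 1 of Lamp2. Without fasted PPARα-null replicates 1 and 3, which leaves 1 array in that group, 6 probe sets were called (10.3%, against 22.9% of all). For Sqstm1, Ctsl, Map1lc3a and Lipa 1423140_at and 1450872_s_at the fasted wild-type arrays were, as deposited, the lowest of the 12.

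**Figure D4:**
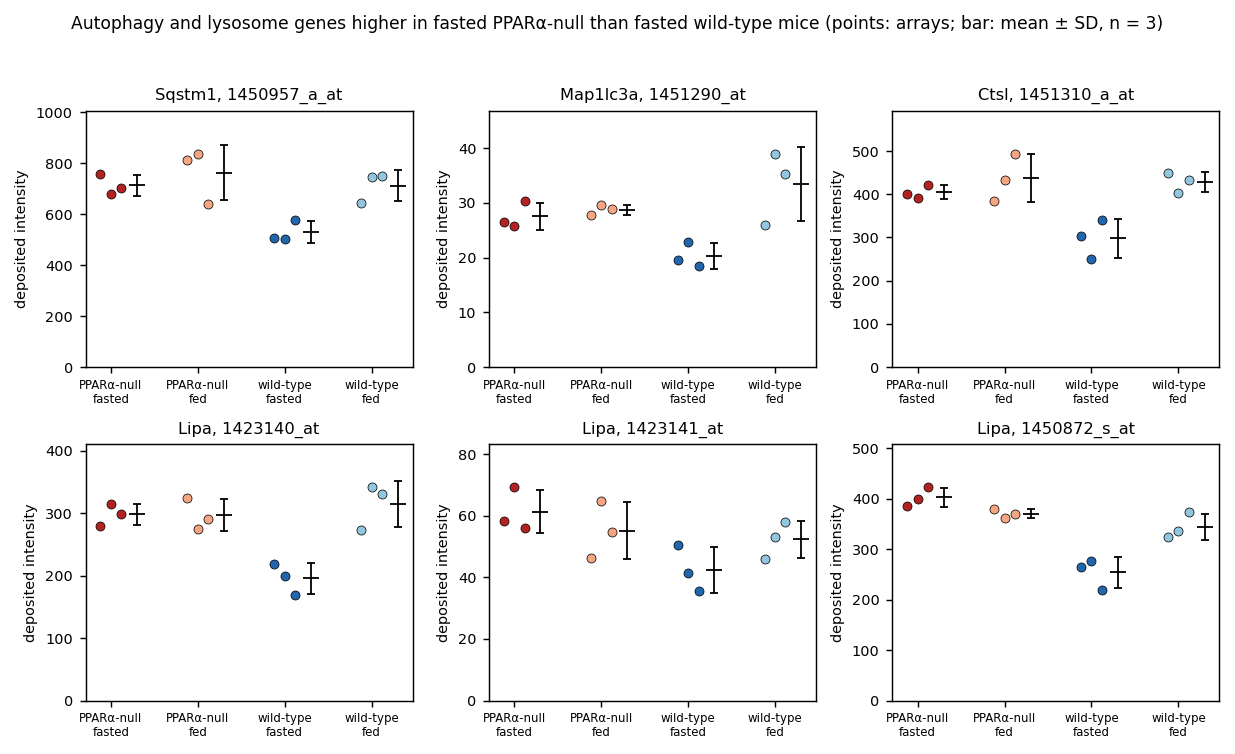
Deposited intensity (linear, no unit) of 6 of the 10 probe sets that were higher in fasted PPARα-null than in fasted wild-type mice, those of Sqstm1, Map1lc3a, Ctsl and Lipa, chosen for this pattern; points are arrays, bars the mean ± SD of 3. Fasted wild-type mice have the lowest group mean in each of the 6 panels, which is not so for the other 4 probe sets (Neu1, Tpp1, Ctsb and Wipi1).

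The fasting response itself differed between genotypes at an adjusted p below 0.05 for 11 of 58 probe sets (19.0%, against 23.8% of 9874), with 6 more positive (10.3%, against 9.22%) and 5 more negative (8.62%, against 14.6%) in PPARα-null mice. At an adjusted p below 0.1 the counts were 10 and 7 (12.8% and 19.1% of all). Those kept without each array were Scarb2 1454704_at, Lipa 1423140_at (0.70 ± 0.17, adjusted p = 0.00947) and 1450872_s_at (0.56 ± 0.14, adjusted p = 0.0112), and Lamp2 1416344_at (-0.56 ± 0.15, adjusted p = 0.0171) and 1428094_at (-0.78 ± 0.20, adjusted p = 0.0132). Without fasted PPARα-null replicates 1 and 3, 5 probe sets passed (8.62%, against 14.7% of all) in a fit with 1 array of that group and the spread of the others, and Lamp2 1416344_at (-0.52), Lamp2 1428094_at (-0.80) and Lipa 1450872_s_at (0.55) were not among them. For the other lysosomal genes that rose in both genotypes, Neu1 and Ctsb, the response was larger in PPARα-null mice by 0.45 ± 0.16 and 0.56 ± 0.21, and the difference did not pass (adjusted p = 0.0579 and 0.0781).

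Of the related lists, other autophagy genes had 27 expressed probe sets. In PPARα-null mice 1 rose (3.70%, against 18.6% of all) and 9 fell (33.3%, against 23.6%), and in wild-type mice 1 rose (3.70%, against 10.0%) and 3 fell (11.1%, against 7.43%), with a median of -0.28 in PPARα-null and -0.036 in wild-type mice. Tax1bp1, a cargo adaptor, changed by -1.11 ± 0.14 in PPARα-null and -0.56 ± 0.14 in wild-type mice, and Atg4d, a protease that acts on the Atg8 family, by -0.93 ± 0.13 in PPARα-null and -0.78 ± 0.13 in wild-type mice. Fundc1, a mitophagy receptor, fell by 0.89 ± 0.088 in PPARα-null mice, whereas Stx17, which fuses autophagosomes with lysosomes, rose by 0.81 ± 0.10. For Nbr1, an adaptor related to Sqstm1, both probe sets fell in PPARα-null mice, with -0.54 ± 0.11 and -0.59 ± 0.09, of which the one given first rose by 0.40 ± 0.11 in wild-type mice (0.088 as deposited, which did not pass). The response of both sets differed between genotypes, by -0.95 ± 0.16 and -0.73 ± 0.13. In wild-type mice Trp53inp2 fell by 0.48 ± 0.12.

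Of 35 probe sets of other lysosomal hydrolases and membrane proteins, 4 rose and 2 fell in PPARα-null mice (11.4% and 5.71%, against 18.6% and 23.6% of all), and 3 rose and 1 fell in wild-type mice (8.57% and 2.86%, against 10.0% and 7.43%). Lgmn, an asparaginyl endopeptidase, averaged 189 in fasted PPARα-null, 109.6 in fed PPARα-null, 228 in fasted wild-type and 112 in fed wild-type mice, rises of 1.10 ± 0.23 in PPARα-null and 1.28 ± 0.23 in wild-type mice. Hgsnat, an enzyme of heparan sulfate breakdown, averaged 76.8 in fasted PPARα-null, 38.6 in fed PPARα-null, 71.4 in fasted wild-type and 41.7 in fed wild-type mice and rose by 1.32 ± 0.15 in PPARα-null and 1.12 ± 0.15 in wild-type mice. Man2b2, a mannosidase, rose by 0.82 ± 0.16 in PPARα-null mice, and Mfsd8, a membrane protein, by 0.58 ± 0.16 in wild-type mice (0.27 as deposited, which did not pass). Both receptors that deliver hydrolases by mannose 6-phosphate appeared among the falls, Igf2r with -0.52 ± 0.13 in PPARα-null and M6pr with -0.38 ± 0.085 in wild-type mice, as did Acp5, an acid phosphatase, with -0.40 ± 0.091 in PPARα-null mice.

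The V-ATPase is the proton pump that acidifies lysosomes. Of 30 probe sets 5 rose and 9 fell in PPARα-null mice (16.7% and 30%, against 18.6% and 23.6% of all), and 3 rose and 2 fell in wild-type mice (10.0% and 6.67%, against 10.0% and 7.43%). The changes of the falling subunits Atp6v0a2 and Atp6v0b were -1.16 ± 0.10 and -0.89 ± 0.10 in PPARα-null mice. Atp6v1a and Atp6v1e1 fell in both genotypes, with -0.81 ± 0.11 and -0.40 ± 0.093 in PPARα-null and -0.88 ± 0.11 and -0.47 ± 0.093 in wild-type mice. Atp6v1b2 rose by 0.80 ± 0.15 in PPARα-null and 0.86 ± 0.15 in wild-type mice. Of 28 probe sets of nutrient sensing genes 9 rose and 4 fell in PPARα-null mice (32.1% and 14.3%, against 18.6% and 23.6% of all), and 3 rose and 1 fell in wild-type mice (10.7% and 3.57%, against 10.0% and 7.43%). The largest rise was that of Ddit4, an inhibitor of mTORC1, with means of 211 in fasted PPARα-null, 57.0 in fed PPARα-null, 46.1 in fasted wild-type and 53.2 in fed wild-type mice, a change of 2.19 ± 0.25 in PPARα-null mice. Foxo1, a transcription factor restrained by insulin, rose by 1.19 ± 0.12 in PPARα-null mice, and Flcn, which acts on the Rag proteins of the mTORC1 pathway, by 0.71 ± 0.14 in PPARα-null and 0.72 ± 0.14 in wild-type mice. Tsc1 rose by 0.44 ± 0.12 in PPARα-null and 0.65 ± 0.12 in wild-type mice, and Mtor by 0.44 ± 0.11 in wild-type mice. As deposited the changes of Flcn were 0.40 in PPARα-null and 0.41 in wild-type mice, and those of Tsc1 were 0.13 and 0.34. That of Mtor was 0.13 in wild-type mice, and none of these passed. Zkscan3, a repressor of autophagy genes, and the Ragulator subunits Lamtor2 and Lamtor4 fell in PPARα-null mice, with -0.90 ± 0.22, -0.89 ± 0.10 and -0.66 ± 0.15, and Lamtor1 fell by 0.43 ± 0.14 in wild-type mice. Another probe set of Lamtor1 was among the rises in PPARα-null mice.

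**Figure D5:**
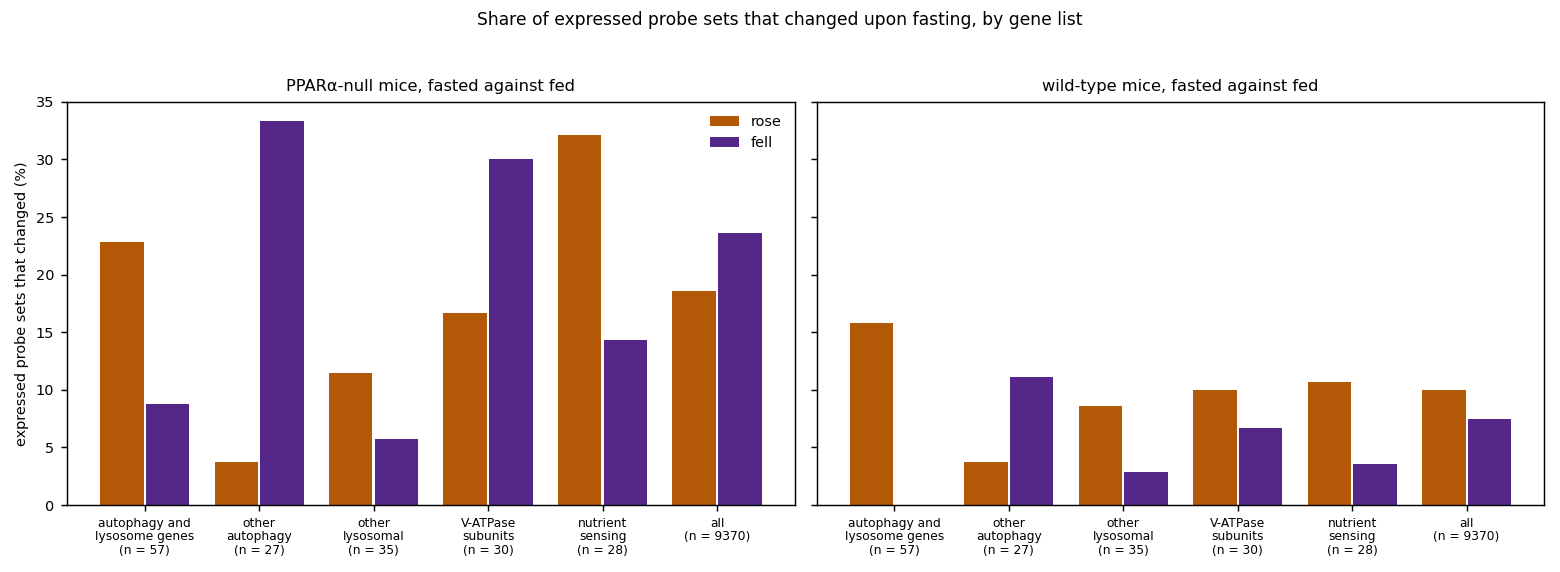
Share (%) of expressed probe sets that rose (orange) or fell (purple) upon fasting in PPARα-null mice (left) and wild-type mice (right), for the autophagy and lysosome genes, the 4 related lists and all expressed probe sets; n is the number of probe sets. For the autophagy and lysosome genes rises exceed falls in both panels (22.8% against 8.77% and 15.8% against 0%), with the common shift removed.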

How the data were processed

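Total RNA of whole small intestine from the 4 groups of 3 samples was hybridised to Affymetrix MOE430A arrays. The authors deposited 1 intensity per probe set and array, normalised by GCRMA 2.20 per the submitters' processing notes, on a linear scale. No counts exist for arrays, so their number limits the precision. Log2 of the deposited intensity was fitted in limma 3.58.1 (R 4.3.3) with 1 mean per group over all 12 arrays. The threshold follows the study's methods, with Benjamini-Hochberg values over all expressed probe sets; the difference of fasting responses was called at an adjusted p of 0.05. The fit was tested on simulated data. The methods call the replicates biological but do not say how many mice each holds, and p-values measure the spread between these samples. Full values are given for members called in any contrast and for the highest-signal member of each role, and genes of other lists are named from their 3 largest rises or falls. The members and lists were chosen with earlier results of these data known. Other normalisations, filters, thresholds, variance models, 1 probe set per gene, a replicate block and leaving out each array were tried. No column of another sample was present.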

Additional observations from a re-analysis of the deposited data

Results flagged for a closer look

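The fasting response of 11 probe sets differed between PPARα-null and wild-type mice by a test of the difference itself (limma interaction, adjusted p below 0.05), and each value is the PPARα-null minus the wild-type response in log2. Scarb2 had 0.52 for 1454704_at and 1.08 for 1460235_at, and Lipa 0.70 for 1423140_at and 0.56 for 1450872_s_at. For Map1lc3a the difference was 0.64 and for Tpp1 1434768_at 0.48. Negative differences were those of Lamp2 (-0.56 for 1416344_at, -0.78 for 1428094_at and -0.57 for 1434503_s_at), Atg12 (-0.56) and Hexa (-0.40).

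For 6 of them the call was lost when 1 of several arrays was left out. That of Map1lc3a ended without fasted PPARα-null replicate 3, fed PPARα-null replicate 1, 2 or 3, fasted wild-type replicate 1 or 3, or fed wild-type replicate 2 or 3 (0.52 to 0.66), and that of Atg12 without fasted PPARα-null replicate 1 or 3, fed PPARα-null replicate 1, 2 or 3, fasted wild-type replicate 1 or 3, or fed wild-type replicate 2 or 3 (-0.57 to -0.47). For Lamp2 1434503_s_at it ended without fasted PPARα-null replicate 1, fed PPARα-null replicate 1, fasted wild-type replicate 1, or fed wild-type replicate 2 or 3 (-0.54 to -0.48). The Scarb2 1460235_at call ended without fasted PPARα-null replicate 2 or 3, fed PPARα-null replicate 1, fasted wild-type replicate 2 or 3, or fed wild-type replicate 2 or 3 (0.88 to 1.04), the Tpp1 call without fasted PPARα-null replicate 2 or 3, fed PPARα-null replicate 2 or 3, fasted wild-type replicate 2 or 3, or fed wild-type replicate 1 or 3 (0.40 to 0.49), and the Hexa call without fasted PPARα-null replicate 1 or 2, fed PPARα-null replicate 1, 2 or 3, fasted wild-type replicate 1 or 3, or fed wild-type replicate 2 or 3 (-0.43 to -0.33). All kept their sign. The Atg12 and Hexa calls were also lost under quantile normalisation and median centring, and that of Lamp2 1434503_s_at under median centring. With the pancreas signal in the fit the Hexa call ended. Those of Map1lc3a, Atg12, Scarb2 1460235_at, Tpp1 and Hexa ended with no filter on level.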

How the results depend on the processing

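None of the 55 calls of named probe sets changed sign under any of the settings run. Changes of filter, threshold or choice of probe sets leave the estimate itself as it was, so no sign could change there. Over the settings other than leaving out an array, 577 of 684 values kept their side of the threshold and 107 lost it; over the 12 arrays left out in turn, 550 of 660 kept it and 110 lost it, and the cause was not tested. Without removal of the shift, 6 rose and 21 fell in PPARα-null mice (13 and 5 with it removed), and 2 rose and 14 fell in wild-type mice (9 and 0). Under quantile normalisation 2 fell in wild-type mice, and under median centring also 2. With no filter on level, 24 rose in PPARα-null mice (29.3%, against 21.1% of all). In that fit 6 responses differed between genotypes (7.32%, against 9.34% of all; 11 with the filter). With a mean over 100 required, 6 rose in PPARα-null (15.0%, against 15.3% of all) and 4 in wild-type mice (10.0%, against 7.58%). Between genotypes 1 differed in fed (2.50%, against 2.61%, and 2 before) and 9 in fasted mice (22.0%, against 27.9%, and 15 before), as fewer probe sets were tested. With the adjusted p as the rule, 8 fell in PPARα-null mice (14.0%, against 25.1% of all) and 1 differed in fed mice (1.75%, against 0.628%). At an adjusted p of 0.1, 17 responses differed (29.3%, against 31.8%). With 1 probe set per gene, 6 rose and 3 fell in PPARα-null mice, 4 rose in wild-type mice, 7 differed in fasted mice and 6 responses differed.

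Chosen after seeing the data, the pancreas signal as a covariate left 4 rises and 1 fall in wild-type mice, and leaving out fasted PPARα-null replicates 1 and 3 together, a fit with 1 array of that group that is assumed to vary like the others, left 6 rises in PPARα-null mice, 6 differences in fasted mice and 5 differing responses. Without 1 array at a time, 11 to 15 rose and 4 to 7 fell in PPARα-null mice, 6 to 11 rose and 0 to 2 fell in wild-type mice, 2 to 3 differed between genotypes in fed and 10 to 16 in fasted mice, and 6 to 10 responses differed. Deviations of same-numbered arrays correlated between -0.20 and 0.23 (median 0.014, over 0.1 in 5 of 18 pairs). Those of different-numbered arrays correlated between -0.34 and 0.28 (median -0.023, over 0.1 in 8 of 36 pairs). With 3 arrays per group these values cannot settle whether the replicate numbers pair the samples. A replicate block gave 13 rises and 6 falls in PPARα-null mice (18.7% and 23.5% of all) and 10 and 0 in wild-type mice (9.93% and 7.44% of all). It gave 2 differences in fed and 14 in fasted mice (2.82% and 30.5% of all) and 10 differing responses (22.8% of all). The block ended 2 of 55 calls, Ctsb in fasted mice and the Hexa response. The 3 arrays per group and the low signal of probe sets near the level of 20 limit the precision.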

Other observations

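Of the 9 expressed genes with the E-box core in the promoter window, 1 rose and 1 fell in PPARα-null mice and 1 rose in wild-type mice. Of the 20 expressed genes with a window that lacked it, 6 rose and 2 fell in PPARα-null mice and 5 rose in wild-type mice. Of all expressed genes 22.6% rose and 29.1% fell in PPARα-null mice and 12.9% rose in wild-type mice. No test of the difference was made.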
